A study of Mus musculus with 8 samples.

Results

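The Regnase, Roquin and TTP families are RNA-binding proteins that shorten the life of mRNAs for cytokines and other inflammatory mediators. Their transcripts were followed in bone marrow–derived mast cells (BMMCs) as the rows of the deposited count tables whose gene symbol was *Zc3h12a*, *Zc3h12b*, *Zc3h12c*, *Zc3h12d*, *Rc3h1*, *Rc3h2*, *Zfp36*, *Zfp36l1*, *Zfp36l2* or *Upf1*. These are 10 of the 24059 genes listed, and all 10 passed the filter on low counts, as 14934 genes did in all. BMMCs were grown from the bone marrow of C57BL/6 mice for at least 4 weeks with IL-3, then electroporated with Cas9-gRNA ribonucleoproteins (RNPs) and kept in culture for 1 week before RNA extraction. The 4 scrambled RNP samples received a guide made to match no gene and are labelled Zc3h12a WT. The 4 *Zc3h12a* RNP samples received guides against *Zc3h12a* and are labelled Zc3h12a KO. All 8 samples therefore went through electroporation with Cas9. Each *Zc3h12a* RNP sample is a bulk population of transfected cells, not a clone, and the counts do not give the share of cells that were edited. The series used the marrow of 4 mice, and a scrambled RNP and a *Zc3h12a* RNP sample with the same replicate number were analysed as a pair.

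Regnase proteins are endonucleases with a CCCH zinc finger and a PIN domain, and Regnase-1, encoded by *Zc3h12a*, cleaves mRNAs with a stem-loop in the 3′ UTR, with the help of the RNA helicase UPF1. Roquin-1 and Roquin-2, encoded by *Rc3h1* and *Rc3h2*, bind similar stem-loops and recruit the enzymes that remove the poly(A) tail and the cap. Tristetraprolin (TTP, *Zfp36*) and its relatives ZFP36L1 and ZFP36L2 bind AU-rich elements and recruit the CCR4-NOT deadenylase. In mast cells such factors act on mRNAs such as *Tnf*, which are made quickly after activation.

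The guides are shown because they define the perturbation. The study lists 3 crRNAs for *Zc3h12a* and 1 scrambled crRNA. Each of the 3 had a single perfect match in GRCm39, followed by the NGG motif that Cas9 needs, and this motif is in capitals below. All 3 matches lay on the plus strand of chromosome 4, opposite to the coding strand of *Zc3h12a*.
crRNA 1: caccactccgtcggattcgaAGG
crRNA 2: ttgcttccgtcgatgaccacAGG
crRNA 3: ggacaggcttcgttccacaaGGG
scrambled crRNA: ggttcttgactaccgtaatt
The site of crRNA 3 was at chr4:125020811-125020830, in coding exon sequence of exon 2 of 6. Its predicted cut followed coding base 14 of 1788, in codon 5 of 596. The site of crRNA 2 was at chr4:125020411-125020430, also in exon 2, with a predicted cut in codon 138. The site of crRNA 1 was at chr4:125014763-125014782, in exon 4, with a predicted cut in codon 235. The sites of crRNA 2 and crRNA 3 were coding in 4 of 4 annotated protein-coding transcripts of the gene and that of crRNA 1 in 3 of 4. No perfect match in the genome was found for the scrambled crRNA. In the gene bodies of the other members, the closest NGG-flanked sequences to the *Zc3h12a* guides had 5 mismatches, both to crRNA 2, in *Zc3h12c* and *Zc3h12d*.

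The library totals were 19610240 to 33986762 counts. Mast cell markers summed to 55534 to 64909 normalized counts scaled to a common library size (CPM) after scrambled RNP and 52561 to 56087 CPM after *Zc3h12a* RNP. The largest part was *Cpa3*, with means of 31172 and 27808 CPM. *Mcpt4* was low, at 2.24 to 5.75 CPM after scrambled RNP and 3.47 to 7.94 CPM after *Zc3h12a* RNP. All 11 markers passed the filter on low counts, and 10 of the 11 had lower fitted levels after *Zc3h12a* RNP. Of these markers, 3 were lower at an unadjusted p at or under 0.05 (*Tpsb2*, *Hdc* and *Srgn*) and 0 were called. Markers of macrophages and dendritic cells summed to 2.27 to 11.8 CPM after scrambled RNP and 4.58 to 8.41 CPM after *Zc3h12a* RNP. Basophil markers summed to 501 to 541 CPM after scrambled RNP and 445 to 511 CPM after *Zc3h12a* RNP, mostly from *Cd200r3*, which mast cells can express as well. Lymphocyte markers summed to at most 5.71 CPM and neutrophil markers to at most 0.333 CPM in any sample. In bulk samples, fewer cells of a type and less RNA per cell cannot be told apart. The part of these marker levels in the results was not tested.

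The members lie on different chromosomes of GRCm39. The TTP family genes are short, with 2 exons each, at chr7:28076209-28079710 (*Zfp36*), chr12:80154528-80160006 (*Zfp36l1*) and chr17:84491132-84495382 (*Zfp36l2*). *Rc3h1*, at chr1:160733982-160802548, has 20 exons in its canonical transcript, and *Rc3h2*, at chr2:37258909-37313172, has 21. *Zc3h12a* is at chr4:125012216-125021711, *Zc3h12c* at chr9:52020873-52080106, *Zc3h12d* at chr10:7708080-7746160, *Zc3h12b* at chrX:94755284-94976243 and *Upf1* at chr8:70784146-70806096.

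The members covered a wide range of levels. Counts were compared between genes as CPM per kilobase of annotated exon, since long transcripts yield more reads. *Zfp36l2* had the highest level, at 194 ± 36.9 CPM per kilobase after scrambled RNP and 168 ± 31.6 after *Zc3h12a* RNP (mean ± SD, n = 4 each). It stood above 98.9% of 14327 tested genes with an annotated length, whose median was 2.55 CPM per kilobase. *Zfp36* and *Zfp36l1* followed, with means over all 8 samples of 74.2 and 61.3 CPM per kilobase. They did not differ beyond their spread: *Zfp36* was the higher of the pair in 4 of 8 samples, which were those of replicates 3 and 4. The helicase gene *Upf1* was at 18.2 CPM per kilobase and lay below *Zfp36l1* in 8 of 8 samples. In replicate 1 it was above *Zfp36* under either RNP, at 18.9 against 16.6 CPM per kilobase after scrambled RNP and 21.5 against 18.4 after *Zc3h12a* RNP. This order depends on the annotation and does not hold per kilobase of the longest transcript. The longest transcript of *Zfp36* has 2822 bases and the union of its exons 3502. For *Upf1* these lengths are 4955 and 4976 bases.

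*Zc3h12a* was at 8.74 and *Rc3h1* at 8.43 CPM per kilobase, and *Zc3h12a* was the higher in 4 of 8 samples, which were again those of replicates 3 and 4, while *Rc3h1* was the higher in those of replicates 1 and 2. *Zc3h12c*, which encodes Regnase-3, was at 4.8 CPM per kilobase and *Rc3h2* at 2.79. The other 2 Regnase genes were low. *Zc3h12b* was at 0.273 CPM per kilobase and *Zc3h12d*, encoding Regnase-4, at 0.109, from 28 to 70 and 3 to 27 counts per sample. Except for the pairs *Zfp36* with *Zfp36l1* and *Zc3h12a* with *Rc3h1*, each gene was above the next in the order in 8 of 8 samples. The place of *Rc3h2* depends on the annotation, since its longest transcript has 10396 bases and the union of its exons 22007. Per kilobase of the longest transcript its mean after scrambled RNP was 5.77 in place of 2.73 CPM, above that of *Zc3h12c* on the same scale (4.92).

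**Figure D1:**
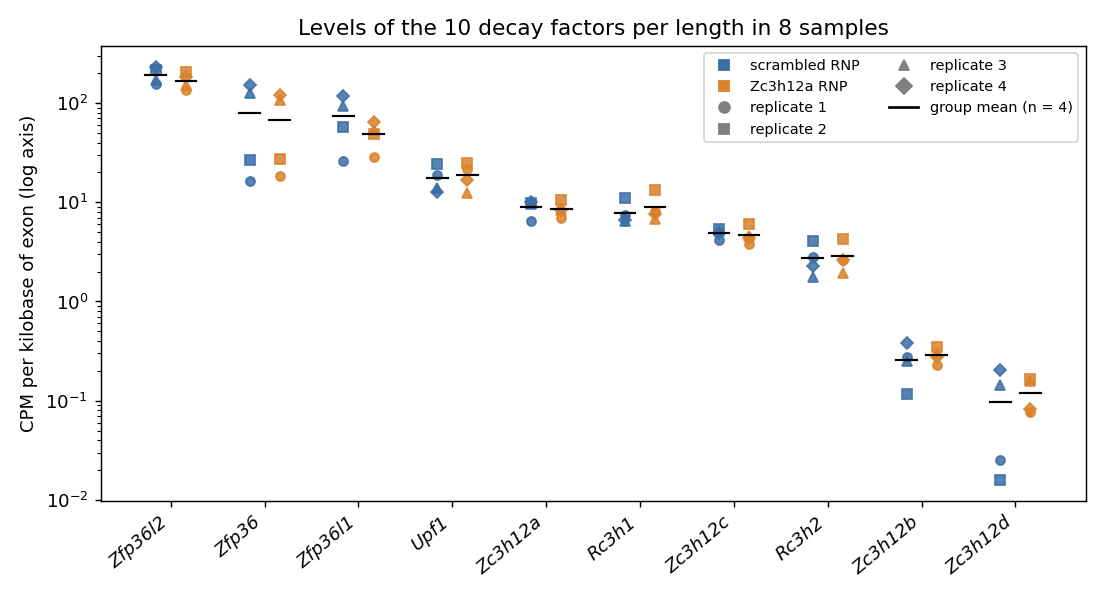
CPM per kilobase of exon (log axis) of the 10 members in each of 8 samples, with scrambled RNP in blue, *Zc3h12a* RNP in orange, a symbol for each replicate number and a bar at each group mean (n = 4). *Zfp36l2* is at the top in every sample, and *Zc3h12b* and *Zc3h12d* lie below 0.4 CPM per kilobase in every sample. With the union of exons as length, *Zfp36* lies below *Upf1* in both samples of replicate 1.

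Within the families the makeup differed in how steady it was. *Zc3h12a* made up 59.0 to 64.8% of the summed Regnase level per kilobase in every sample, and *Zc3h12c* 31.5 to 38.2%. *Rc3h1* made up 72.7 to 78.6% of the Roquin level, with the union of exons as length. This share is lower with the longest transcript as length. The means of *Rc3h1* and *Rc3h2* after scrambled RNP were then 8.11 and 5.77 CPM per kilobase, in place of 7.89 and 2.73. In the TTP family the share of *Zfp36* ran from 8.35 to 34.2%, and that of *Zfp36l2* from 44.0 to 78.4%.

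The comparison the design was made for is *Zc3h12a* RNP against scrambled RNP, which asks what the loss of Regnase-1 does to the transcriptome of resting mast cells. For the decay factors themselves the answer was 0 of 10 called higher and 0 called lower, where a call needed a log2 fold change of more than 0.5 in size and, in edgeR's quasi-likelihood test with Benjamini-Hochberg adjustment, an adjusted p of 0.05 or less. The replicate number was a block in this test. Over all 14934 genes tested the called share was likewise 0.0%, so the count of members says nothing particular to them. At an unadjusted p at or under 0.05, 2 members were lower and 0 higher, beside 605 genes lower and 317 higher among all genes tested. DESeq2 and limma called 0 members too. The median log2 fold change of all genes was 0.038.

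*Zc3h12a*, the targeted gene, was at 24.9, 38.0, 37.1 and 39.3 CPM after scrambled RNP (replicates 1 to 4) and at 26.8, 41.1, 32.2 and 32.6 CPM after *Zc3h12a* RNP. The groups overlapped, and replicate 1 was the lowest in both. Its log2 fold change was -0.064 ± 0.097 (SE), with a 95% interval of -0.29 to 0.16 (edgeR's adjusted p = 0.960). Counts summed over a gene include transcripts that carry small insertions or deletions, so this level does not measure editing. The transcript level does not check the RNP labels.

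The other Regnase genes gave no called difference. *Zc3h12c* was at 36.7, 47.4, 45.1 and 43.4 CPM after scrambled RNP and 33.8, 54.0, 40.1 and 38.99 CPM after *Zc3h12a* RNP. It was higher in 1 of 4 pairs, and its log2 fold change was -0.063 (95% interval -0.27 to 0.15). This interval leaves out changes beyond the 0.5 limit in either direction, as does that of *Zc3h12a*. For *Zc3h12b* and *Zc3h12d* the interval was far wider, at -0.82 to 1.33 and -1.22 to 2.82, so a change of either was not detectable at these counts. *Zc3h12b* was at 2.22, 0.933, 2.01 and 3.09 CPM after scrambled RNP and at 1.84, 2.82, 2.43 and 2.21 CPM after *Zc3h12a* RNP. *Zc3h12d* was at 0.159, 0.09996, 0.906 and 1.28 CPM after scrambled RNP and at 0.485, 1.04, 0.987 and 0.519 CPM after *Zc3h12a* RNP. In both genes the lowest sample of the 8 was replicate 2 after scrambled RNP, and the groups overlapped.

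The Roquin genes and *Upf1* had small positive fold changes. *Rc3h1* was at 85.5, 126.5, 73.3 and 75.2 CPM after scrambled RNP and at 94.1, 151.2, 77.4 and 87.7 CPM after *Zc3h12a* RNP. It was higher in 4 of 4 pairs, as were 4.98% of all genes tested, and its log2 fold change was 0.17 ± 0.076 SE (edgeR's adjusted p = 0.813). The exact two-sided sign-flip test gave p = 0.125, the smallest that 4 pairs allow. *Rc3h2* was at 61.9, 89.2, 38.5 and 50.3 CPM after scrambled RNP and at 57.0, 93.3, 43.0 and 58.0 CPM after *Zc3h12a* RNP. *Upf1* was at 94.2, 121.6, 69.2 and 63.1 CPM after scrambled RNP and at 107.2, 123.6, 61.2 and 83.7 CPM after *Zc3h12a* RNP. The groups overlapped in all 3 genes. *Rc3h2* had a log2 fold change of 0.076 (95% interval -0.12 to 0.27) and *Upf1* one of 0.11 (-0.14 to 0.36), each higher in 3 of 4 pairs. With 1 replicate left out the value of *Upf1* ran from 0.014 to 0.20 and that of *Rc3h2* from -0.0036 to 0.19.

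The TTP family had negative fold changes. *Zfp36l1*, the member with the largest difference among those with over 100 counts in every sample, was at 84.0, 185.4, 296.7 and 380.0 CPM after scrambled RNP and at 92.1, 154.8, 172.4 and 207.6 CPM after *Zc3h12a* RNP. The groups overlapped, and the pairs differed from each other. The log2 differences of replicates 1 to 4 were 0.13, -0.26, -0.78 and -0.87, so the samples of replicates 3 and 4 held most of the difference. The fitted log2 fold change was -0.45 ± 0.17 SE (unadjusted p = 0.0288, adjusted p = 0.718, edgeR), and the exact sign-flip test gave p = 0.25.

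*Zfp36l2* was at 585.4, 816.4, 644.1 and 878.3 CPM after scrambled RNP and at 504.8, 771.6, 569.7 and 685.0 CPM after *Zc3h12a* RNP. It was lower in 4 of 4 pairs, as were 8.54% of all genes tested, and its log2 fold change was -0.21 ± 0.081 SE (unadjusted p = 0.0347, adjusted p = 0.753, edgeR). *Zfp36* was higher in 2 pairs and lower in 2, and its log2 fold change was -0.10, with a 95% interval of -0.35 to 0.14.

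**Figure D2:**
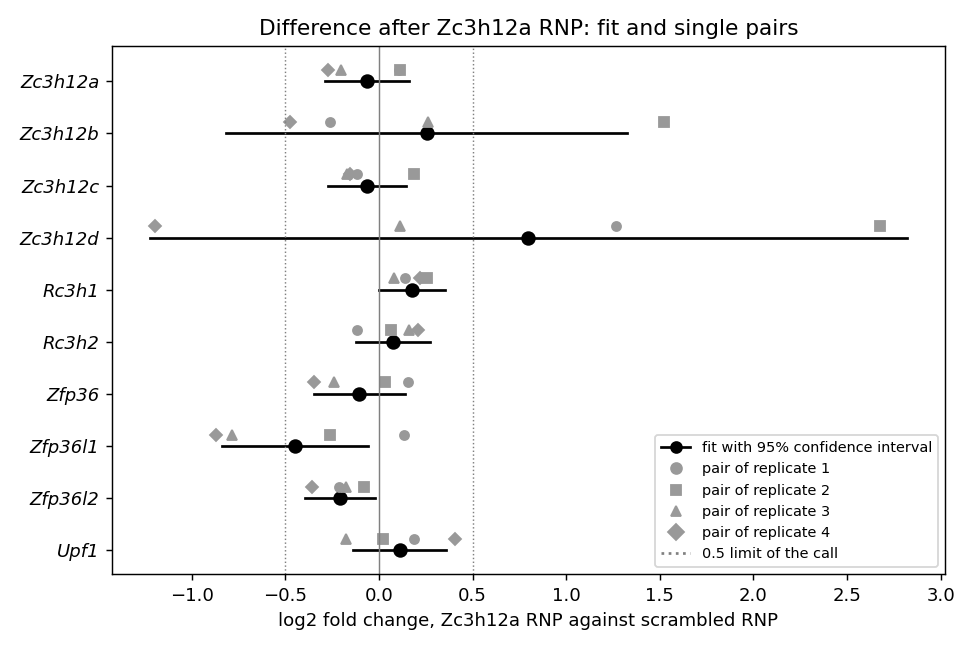
Log2 fold change of each member, *Zc3h12a* RNP against scrambled RNP, as the fitted value (black) with its 95% confidence interval and as the difference of log2 CPM in each of the 4 pairs (grey). The intervals of *Zfp36l1* and *Zfp36l2* lie below 0, those of *Zc3h12b* and *Zc3h12d* span more than the 0.5 limits (dotted) on both sides, and 0 of the 10 members were called.

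The members were also compared between replicate numbers. A test of the replicate number, with the RNP in the model, called 7 of 10 members at an adjusted p at or under 0.05, beside 28.0% of all genes tested. Without the samples of replicate 1, 2 or 3 the test called 3 members each time, beside 9.62%, 16.1% and 9.97% of all genes tested in those fits, and without those of replicate 4 it called 7, beside 19.3%. Called genes were mostly well expressed, and among genes with a mean above 4 CPM the share was 42.2%, beside 7 of 8 members above that level. The 3 members not called were *Zc3h12c* (adjusted p = 0.0707), *Zc3h12d* (0.591) and *Zc3h12b* (0.869). A replicate number can stand for a mouse, a culture or a day of handling, and these cannot be told apart.

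*Zfp36* stood out among the members. It was at 58.0, 93.2, 440.1 and 534.5 CPM after scrambled RNP and at 64.6, 95.2, 372.6 and 419.8 CPM after *Zc3h12a* RNP. The samples of replicates 3 and 4 were at 372.6 CPM or more and those of replicates 1 and 2 at 95.2 CPM or less, under either RNP. The means of the replicate numbers spanned 2.95 on the log2 scale, more than those of 99.5% of the genes tested, while the largest difference within a pair was 0.35. Its replicate test had an adjusted p of 0.000365 and ranked 8 among all genes, and *Zfp36* was called under each of the alternatives run.

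*Zfp36l1* followed the same order. The means of its samples were 88.1, 170.1, 234.6 and 293.8 CPM in replicates 1 to 4 (adjusted p = 0.0101), a difference of 3.34-fold between the highest and the lowest number. *Zfp36l2* differed less, by 1.46-fold, and was lowest in replicate 1 (adjusted p = 0.0218). Its highest number was 2 with TMM normalization and 4 with RLE size factors, and it was not called with the latter, without the filter or without replicate 1, 2 or 3. *Zfp36l1* was not called without replicate 1. In the summed TTP level per kilobase, the mean share of *Zfp36* was 9.26% in replicate 1, 9.26% in replicate 2, 33.2% in replicate 3 and 31.5% in replicate 4. The sum itself ran from 181 CPM per kilobase in replicate 1 after *Zc3h12a* RNP to 504 in replicate 4 after scrambled RNP.

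**Figure D3:**
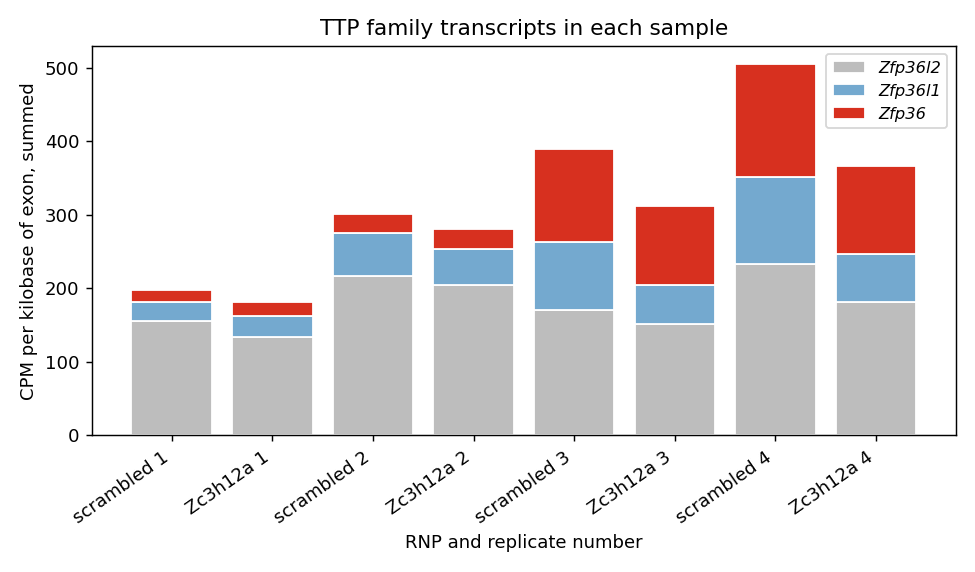
Summed level of the TTP family (CPM per kilobase of exon) in each sample, with the part of *Zfp36l2* (grey), *Zfp36l1* (blue) and *Zfp36* (red), ordered by replicate number with the scrambled RNP sample first. The red part is small in replicates 1 and 2 and about 30 to 34% of the bar in replicates 3 and 4 under either RNP.

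*Rc3h1*, *Rc3h2* and *Upf1* had another order. The means of *Rc3h1* were 89.8, 138.9, 75.4 and 81.5 CPM in replicates 1 to 4 (adjusted p = 0.00421), those of *Rc3h2* were 59.5, 91.2, 40.7 and 54.1 CPM (adjusted p = 0.00350) and those of *Upf1* were 100.7, 122.6, 65.2 and 73.4 CPM (adjusted p = 0.0116). All 3 were highest in replicate 2 and lowest in replicate 3, both with TMM and with RLE, and with TMM these numbers differed by 1.84-fold, 2.24-fold and 1.88-fold. The call was lost for *Rc3h1* without replicate 2, for *Rc3h2* without replicate 2 or 3 and for *Upf1* without replicate 1 or 3. *Zc3h12a* was lowest in replicate 1, at 25.9 CPM against 34.6 to 39.6 CPM in the other numbers, with an adjusted p of 0.0494 that lies at the threshold and was lost under DESeq2, RLE, upper-quartile scaling, without the filter and without replicate 1, 2 or 3. *Zc3h12c* was also lowest in replicate 1, at 35.3 CPM, and highest in replicate 2, at 50.7 CPM.

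**Figure D4:**
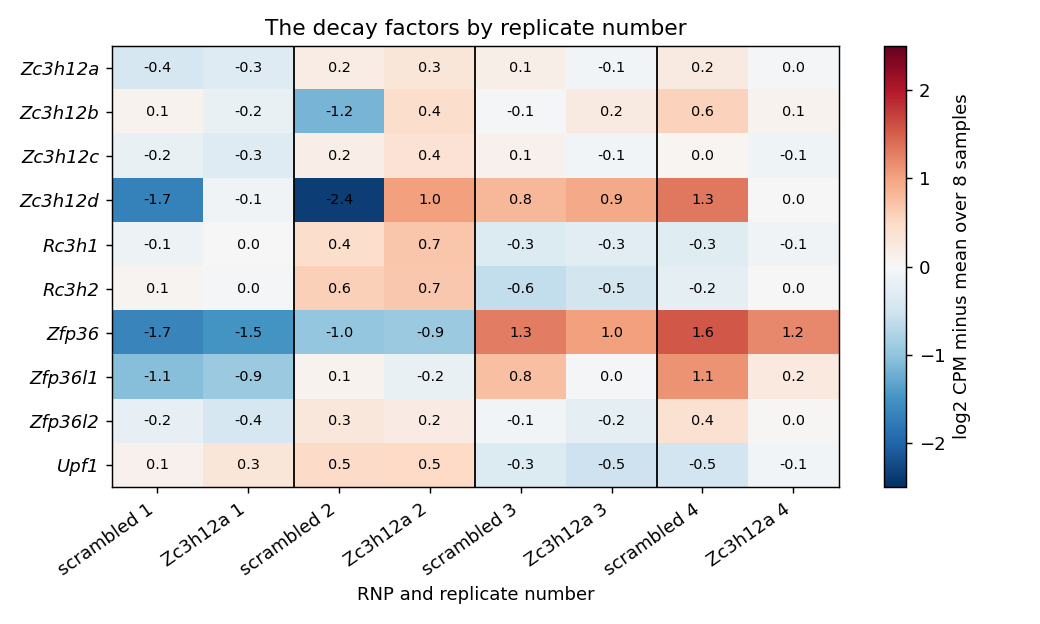
Log2 CPM of each member minus its mean over the 8 samples, with no prior count added. The samples of each replicate number are side by side (scrambled RNP first). *Zfp36* is low in replicates 1 and 2 and high in replicates 3 and 4 under both RNPs, *Rc3h1*, *Rc3h2* and *Upf1* are highest in replicate 2, and the wide values of *Zc3h12d* and *Zc3h12b* rest on at most 70 counts per sample.

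For the members whose log2 CPM spanned more than 1 over the 8 samples, the 3 genes with the most similar profile were listed, by the root mean square difference of centred log2 CPM over the 8 samples. For *Zfp36* these were *Dipk1c* (0.37), *Cebpb* (0.42), which encodes a transcription factor of inflammatory genes, and *Ccn1* (0.48), an immediate early gene. *Cebpb* was at 18.3, 29.7, 161.5 and 100.8 CPM after scrambled RNP, while *Dipk1c* and *Ccn1* stayed under 2.3 CPM in every sample. For *Zfp36l1* they were *Tnfsf9* (0.20), *Thbd* (0.22) and *Vegfa* (0.25), which encode a ligand of T cell co-stimulation, thrombomodulin and an angiogenic growth factor. *Vegfa* was at 49.6, 66.0, 150.5 and 194.6 CPM after scrambled RNP and at 37.2, 59.7, 93.3 and 82.5 CPM after *Zc3h12a* RNP. It shared the lower values of *Zfp36l1* after *Zc3h12a* RNP in replicates 3 and 4. Since these genes were chosen for a similar profile in the same samples, this likeness was built into the choice.

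For *Rc3h1* the nearest were *Prr14l* (0.071), *Exoc1* (0.074) and *Tnks* (0.074), for *Rc3h2* *Zyg11b* (0.069), *Ptpn4* (0.088) and *Tgfbr1* (0.093), and for *Upf1* *Clip2* (0.096), *Atp13a1* (0.099) and *Plagl2* (0.10). The nearest genes of *Zc3h12d* were *Fam90a1b*, *Elapor1* and *Kdm4d*, and those of *Zc3h12b* were *Adgb*, *Zbtb26* and *4732471J01Rik*, all at under 8 CPM in every sample.

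The machinery that the factors recruit or act beside was read from lists of its genes. Of 18 deadenylase genes and adaptors, 6 had a positive and 12 a negative fold change and 0 were called, with a median log2 fold change of -0.065. The lowest unadjusted p-values were those of *Tob1* (log2 fold change -0.35 ± 0.11 SE), *Btg1* (-0.26 ± 0.11), both antiproliferative adaptors of CCR4-NOT, and *Cnot7* (-0.14 ± 0.074), a catalytic subunit, each lower in 4 of 4 pairs. Of 15 tested genes of decapping and 5′-3′ decay, 12 were positive and 3 negative, with a median of 0.036 and 0 called. *Edc4*, a scaffold of decapping, had 0.17 ± 0.077 and the decapping enzyme gene *Dcp2* 0.17 ± 0.10, while the cofactor gene *Dcp1b* had -0.19 ± 0.11.

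Of 14 tested genes of the exosome and the Ski complex, 12 were positive and 2 negative, with a median of 0.055 and 0 called. *Ttc37*, a Ski scaffold, had 0.33 ± 0.13 and the core exosome genes *Exosc2* and *Exosc3* had 0.24 ± 0.092 and -0.17 ± 0.077. Of 9 partners of UPF1 in nonsense-mediated decay, 3 were positive and 6 negative, with 0 called and a median of -0.041. Among them, *Smg6*, the endonuclease of that pathway, had -0.21 ± 0.077, *Smg5* 0.20 ± 0.096 and *Upf3b* -0.18 ± 0.10. Of 13 other binders of AU-rich or stem-loop elements and related nucleases, 5 were positive and 8 negative, with 0 called. *Arid5a*, which protects stem-loop mRNAs from Regnase-1, had -0.24 ± 0.089, and *Ybx1* and *Elavl1*, encoding stabilizing proteins, had -0.20 ± 0.12 and 0.13 ± 0.089.

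A list of kinases, proteases and phosphatases that act on the factors, and of proteins that work with them, held 20 tested genes. It included *Bcl10*, *Card9*, *Btrc* and *Ywha* genes, which encode none of these enzymes. In this list 5 genes were positive, 15 negative and 0 called. *Dusp1*, encoding the phosphatase that turns off the p38 pathway through which TTP is phosphorylated, was the furthest from 0, at 240.8 ± 197.4 CPM after scrambled RNP and 142.5 ± 97.4 CPM after *Zc3h12a* RNP (SD, n = 4), a log2 fold change of -0.69 ± 0.12 SE (unadjusted p = 0.000576, adjusted p = 0.401, edgeR), lower in 4 of 4 pairs. *Malt1*, encoding the protease that cleaves Regnase-1 and Roquins, had -0.26 ± 0.099, and its partner *Bcl10* had -0.22 ± 0.080. *Dusp1* was also called between replicate numbers (adjusted p = 0.000965), with means of 56.8, 108.6, 211.6 and 389.6 CPM in replicates 1 to 4, the order of *Zfp36* and *Zfp36l1*.

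Of 22 transcripts reported as targets of these factors, 15 were tested, with 11 positive, 4 negative and 0 called, and a median log2 fold change of 0.17. *Tnf* was at 437.3 ± 333.3 CPM after scrambled RNP and 704.4 ± 389.1 CPM after *Zc3h12a* RNP (SD, n = 4), a log2 fold change of 0.84 ± 0.18 SE (unadjusted p = 0.00173, adjusted p = 0.424, edgeR), higher in 4 of 4 pairs. *Nfkbiz* and *Nfkbid*, encoding nuclear IκB proteins, had 0.27 ± 0.084 and 0.48 ± 0.19. Without replicate 2, *Tnf* was called higher (1.07, adjusted p = 5.42e-06, edgeR) and *Dusp1* lower (-0.76, adjusted p = 0.00480), and both were also called by DESeq2 and without the filter on low counts. Between replicate numbers, 10 of the 15 targets were called, beside 28.0% of all genes and 42.2% of those above 4 CPM. The order differed among targets. *Tnf* had means of 131.1, 924.4, 777.9 and 450.0 CPM in replicates 1 to 4, a different order from that of *Zfp36*. *Nfkbiz*, with means of 56.4, 278.3, 334.9 and 398.5 CPM, rose as *Zfp36* did, while *Nfkbid* was highest in replicate 3, at 497.9 CPM.

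The test of the replicate number was also read for the lists of decay machinery. The test called 12 of 18 deadenylase genes and adaptors, 9 of 15 genes of decapping and 5′-3′ decay and 8 of 14 of the exosome and the Ski complex. It also called 8 of 9 partners of UPF1 and 8 of 13 other binders and related nucleases. In the list of kinases, proteases, phosphatases and the proteins that work with them it called 11 of 20. These counts stand beside the 28.0% of all genes and the 42.2% of those above 4 CPM. Whether a list differs from other genes of similar level was not tested.

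The 3′ UTRs of the members were searched for the elements that these families bind, on the sense strand of the canonical GENCODE transcript. The AU-rich heptamer TATTTAT was present in 6 of 10 members and in 33.4% of 13064 tested genes with an annotated 3′ UTR. A stem of 5 paired bases closing a loop of 3 bases, in the order pyrimidine, purine, pyrimidine, was present in 4 of 10 members and in 26.6% of these genes. Long UTRs hold more matches by length alone, and those of *Rc3h1*, *Rc3h2* and *Zc3h12c* had 7181, 6336 and 5833 bases beside a median of 1393. Per kilobase of UTR, the members together had 0.633 heptamers and 0.352 stem-loops, and all genes 0.291 and 0.189. A match of letters is a description and not a bound site.

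The 3 TTP family transcripts held 3 heptamers each and 0 such stem-loops. They are shown because the family binds this element, with 1 of the 3 matches for each gene and the heptamer in capitals.
Zfp36, chr7:28076383-28076397, minus strand: acttTATTTATtgta
Zfp36l1, chr12:80154948-80154962, minus strand: ggatTATTTATttta
Zfp36l2, chr17:84492115-84492129, minus strand: gtaaTATTTATttca
*Zc3h12a* held 0 heptamers and 3 stem-loops in a UTR of 856 bases, and *Zc3h12c* held 1 in its far longer UTR beside 3 heptamers. The stem-loops are shown because Regnase and Roquin proteins bind such elements, with the loop in capitals and the paired bases on either side of it.
Zc3h12a, chr4:125012859-125012879, minus strand: gttgatacaCATtgtatctct
Zc3h12a, chr4:125012677-125012697, minus strand: gttaggcacCATgtgcctgct
Zc3h12a, chr4:125012453-125012473, minus strand: agatttaaaTATtttaaatga
Zc3h12c, chr9:52024766-52024786, minus strand: aatctgaacCATgttcagcaa
The Roquin genes each held a stem-loop with the same 13 bases, at different places in their UTRs.
Rc3h1, chr1:160799227-160799247, plus strand: aataacttcTGTgaagttgcc
Rc3h2, chr2:37263818-37263838, minus strand: attaacttcTGTgaagttgtt
*Tnf*, a known target of all 3 families, had 8 heptamers and 2 such stem-loops in 764 bases. *Zc3h12b*, *Zc3h12d* and *Upf1* had neither element in the UTR of the canonical transcript.

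The 250 bases upstream of the RefSeq start were searched on both strands, for 9 of the 10 members (all but *Zfp36l2*), for a CArG box (the site of serum response factor), the cAMP response element TGACGTCA, the AP-1 sites TGACTCA and TGAGTCA, the NF-κB site and the EGR site GCGTGGGCG. *Zfp36* held 1 CArG box, which begins 58 bases before the start, and such a box was found in 1.47% of 32851 RefSeq promoters of the same length. It is shown in capitals with 10 bases on each side, at chr7:28379267-28379296 on the minus strand of GRCm38.p6: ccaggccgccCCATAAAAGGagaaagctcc. *Rc3h1* held 1 AP-1 site (in 4.46% of promoters), 1 of the 2 promoters of *Zc3h12c* held an NF-κB match (7.25%), and the promoters of *Zc3h12a*, *Zc3h12b*, *Zc3h12d*, *Rc3h2*, *Zfp36l1* and *Upf1* held 0 of these motifs. A link of any of these motifs to the levels or to the differences between replicate numbers was not tested.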

How the data were processed

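RNA from 8 BMMC samples was enriched for poly(A) and sequenced as read pairs. The authors checked reads with FastQC 0.11.9, aligned them to GRCm39 with HISAT2 2.2.1 and deposited raw counts per gene from featureCounts 2.0.1. The settings for strand and for reads with several matches are not given in the sources used here. The methods also name a batch correction with removeBatchEffect, and the deposited counts are whole numbers, which that function does not usually return. They were used as deposited.

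All genes entered edgeR 4.0.16 (R 4.3.3) for its quasi-likelihood test, with TMM and its filter on low counts, with the replicate number and the RNP in the model. Alternatives were DESeq2 1.42.0, limma 3.58.1, other scalings and filters, no block and leaving out each replicate. CPM are TMM-normalized, and log2 CPM used a prior count of 2. Standard errors are the size of the log2 fold change over the square root of F. The test was checked on simulated counts. Exon lengths, UTRs and sites came from GENCODE M39 (GRCm39), and promoters from a RefSeq table (GRCm38.p6), which matched 9 of 10 members, without *Zfp36l2*.

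The pairing comes from the study's design of 4 mice, and the labels do not say that a number marks a mouse. After subtraction of the group means, samples with the same number correlated at 0.756, 0.717, 0.728 and 0.719 in 9668 genes with a mean log2 CPM above 2, and samples of different numbers at most at 0.137. Over all genes tested these were 0.595, 0.075, 0.624 and 0.041, with up to 0.398 between different numbers. Samples of one group differed by more than sampling noise. Genes named beside the members are the 3 nearest profiles, the 3 genes of lowest unadjusted p in each list, and mast cell markers. *Vegfa* and *Cebpb* among the nearest were picked for their values. *Il2*, *Icos*, *Cxcl2*, *Csf2*, *Il3* and *Il10* had too few counts to be tested. Members and lists were chosen with earlier results of these data known. Lists that stand for cell types had 0 genes called after *Zc3h12a* RNP, and the replicate test called 3 of the mast cell markers.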

Additional observations from a re-analysis of the deposited data

Results flagged for a closer look

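*Zc3h12a* in replicate 1 after scrambled RNP, at 24.9 CPM, lay apart from the other 3 scrambled RNP samples, at 37.1 to 39.3 CPM. Its gap to the nearest of them was 0.846 of the range of the group. Among 20 groups of 4 samples examined, this was the only such sample, and chance gives about 1 in 20. The *Zc3h12a* RNP sample of replicate 1 was also the lowest of its group, at 26.8 CPM.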

How the results depend on the processing

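No member tested was called after *Zc3h12a* RNP under the 11 alternatives run, which included the fit with no replicate block. *Zc3h12d* was not tested with at least 10 counts in every sample, and DESeq2 gave no adjusted p for *Zc3h12b* and *Zc3h12d*. Among the adjusted p-values given, the lowest adjusted p was 0.111, for *Zfp36l1*. Without the replicate block 0 genes were called as well. Over all genes, calls higher and lower were 8 and 52 by DESeq2, 9 and 31 without the filter, 0 and 1 by limma, 0 and 1 with RLE, 0 and 3 with at least 10 counts in every sample, and 0 to 80 and 0 to 57 when 1 replicate was left out, with 80 and 57 without replicate 2. In the pathway lists 1 gene was called higher and 1 lower by DESeq2, without the filter and without replicate 2, otherwise 0 and 0, so leave-one-out counts ran from 0 to 1. Log2 fold changes that changed sign were those of *Zc3h12b* without replicate 2 (-0.10, up to 0.51 when another was left out), *Rc3h2* without replicate 3 (-0.0036, up to 0.19) and *Zc3h12a* without replicate 4 (0.0062, down to -0.075), and the other 106 kept theirs. With 1 replicate left out the size moved for *Zfp36* (-0.14 to -0.020), *Zfp36l1* (-0.59 to -0.31), *Zc3h12c* (-0.087 to -0.00058), *Zc3h12d* (0.080 to 1.55) and *Upf1* (0.014 to 0.20). The replicate test called 2364 genes with RLE and 1443 to 2878 when 1 replicate was left out. It called 3 to 7 members when 1 replicate was left out: 3 without replicate 1, 2 or 3 and 7 without replicate 4. The level per kilobase of *Rc3h2* was 5.77 with the longest transcript as length, and the other 59 levels stayed within 1 SD of the scrambled RNP samples. This SD is the spread between samples and does not measure how far a level depends on the length. With the longest transcript *Zfp36* went from 80.4 to 99.7 CPM per kilobase (SD 68.9) and *Zc3h12d* from 0.0971 to 0.144 (SD 0.0919). The cause of these changes was not tested. *Zc3h12b* and *Zc3h12d* had at most 70 and 27 counts per sample and the widest intervals of the members.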
